A study of Mus musculus with 14 samples.

Results

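The gain-of-function experiment asked how brainstem gliomas that carry an overactive EZH2 differ in their RNA from gliomas of mice with normal EZH2. The deposited table of this comparison lists 294 of the 3761 genes found in either table of the series. All 294 were described here in all 7 tumors of the experiment, out of 14 tumors sequenced. These genes had been selected on the same 7 tumors by the DESeq2 test that made the table, so that each of them was bound to differ between the groups. Of 304 genes that the ranks of the deposited p-values reach, 10 were not analysed here, and neither were the other genes of the 16173 tested.

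EZH2 GOF was the group of 4 tumors from Nestin-Tv-a;Ezh2Y641F/+ mice given RCAS CRE, and EZH2 WT the group of 3 tumors given the control virus RCAS Y. The sample labels give the control mice the genotype Nestin-Tv-a;Ezh2wt, whereas the study's methods describe them as mice with the inducible Y641F allele in which no recombinase was delivered. The strain label is C57BL/6 for both, and by the methods both groups also received RCAS-PDGF-B and RCAS-shp53 in the brainstem shortly after birth, so that PDGF-B and knockdown of p53 were shared. RCAS is a bird retrovirus that enters mouse cells only through its receptor TVA, which the Nestin promoter drives in neural progenitors here, and Cre recombinase switches on the mutant allele in the cells it reaches. Other cells of the tumor keep normal EZH2. By the study's own reading of these libraries the mutant allele was not detected in most EZH2 GOF tumors, so the group is defined here by genotype and virus. The study proposes that RNA sequencing may miss a mutation in a weakly expressed gene. It also reports more of the histone mark that EZH2 places in EZH2 GOF tumors, by staining and immunoblot, and takes this as expression of the mutant. It does not state whether those were the sequenced tumors. RNA came from whole frozen tumors, which hold normal brain cells as well, and less RNA per cell and fewer cells of a type cannot be told apart. The labels do not say that replicates came from separate litters, and p-values measure the spread between these tumors. Ezh2 itself, the glioma markers Olig2, Sox2, Pdgfra and Nes and the other 5 genes of the tumor and progenitor list are not in the table, so neither the mutation nor the tumor label could be checked here.

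EZH2 is the methyltransferase of Polycomb repressive complex 2, which places trimethylation on lysine 27 of histone H3 and keeps genes of other lineages and of development silent. Exchange of the tyrosine in its catalytic SET domain for phenylalanine raises the trimethylated form of this mark when a normal copy is present. Silenced promoters of this kind are typically rich in CG dinucleotides and often belong to homeobox, paired-box and other transcription factor genes. The cerebellum lies directly behind the brainstem and holds granule cells, which arise from precursors with Barhl, Pax6 and Zic factors, and Purkinje cells, which carry Pcp2 and Car8.

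The libraries differed in depth. Normalized counts are reads per gene divided by the size factor of the library. In EZH2 GOF tumors 1 read was worth 0.471 to 1.07 normalized counts, whereas in EZH2 WT replicate 1 it was worth 10.7, against 0.670 and 0.641 in EZH2 WT replicates 2 and 3. The listed genes held 151603 to 408977 reads in EZH2 GOF libraries, and 14796, 306759 and 412664 reads in EZH2 WT replicates 1 to 3. The median lower gene had 28 reads in EZH2 WT replicate 1, against 346 and 393 in EZH2 WT replicates 2 and 3, so values of that library carry more counting error than those of the other controls, and results are also given without it.

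In all, 227 of the 294 genes had lower values in EZH2 GOF tumors and 67 had higher ones. The groups did not overlap in 208 lower genes (70.7% of the listed genes) and in 64 higher genes (21.8%), as the choice of the table from these tumors favors. The median log2 fold change was -2.85 among lower genes and 1.10 among higher ones. Lower genes were scarce in EZH2 GOF, with a median of 31.4 normalized counts against 276 in EZH2 WT, and 67 of them averaged under 10 normalized counts in EZH2 GOF. Higher genes were abundant in both, with a median of 1870.1 normalized counts in EZH2 GOF against 771 in EZH2 WT. The spread between tumors differed likewise. Among lower genes the median coefficient of variation was 51.2% in EZH2 GOF and 57.4% in EZH2 WT, and among higher genes it was 22.2% in EZH2 GOF and 16.9% in EZH2 WT.

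Counted against all 16173 genes, limma on log2(normalized count + 1) called 12 genes lower at an adjusted p under 0.05, which is 4.08% of the listed genes, and 0 genes higher (0.0%). At an unadjusted p under 0.05, 226 genes were lower (76.9%) and 67 higher (22.8%). On the reads recovered from the table, DESeq2 called 214 lower and 64 higher genes, and edgeR's quasi-likelihood test called 4 lower and 0 higher genes. Without EZH2 WT replicate 1, limma called 23 genes lower and 0 higher, of which 11 were among the 12. Without any 1 of the other 6 libraries it called 0 genes, with 214 to 222 lower and 63 to 67 higher genes at an unadjusted p under 0.05. The 12 genes were Barhl2, Sycp1, Bcl2l15, Mybpc3, Nrk, Iltifb, Hes3, Zfp385c, Il20rb, Dnah11, Pax6 and Shisa6.

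Barhl2, Pax6 and Hes3 are transcription factor genes of the developing brain. Barhl2 encodes a homeobox factor of the neural tube and lies on chromosome 5, at 106452523 to 106458166 in mm10. It had 0.646, 5.35, 3.22 and 0 normalized counts in EZH2 GOF tumors, against 267, 350.2 and 519 in EZH2 WT tumors. The groups lay far apart, and the 4 EZH2 GOF libraries together hold 12 reads of the gene, so that its fold change depends on the pseudocount of 1. By limma it fell by 7.15 on the log2 scale, with a standard error of 0.80 (adjusted p = 0.0320). Hes3, a basic helix-loop-helix repressor of neural progenitors on chromosome 4, had 2.58, 6.02, 5.36 and 4.24 normalized counts in EZH2 GOF tumors, against 235, 238 and 446 in EZH2 WT tumors. Its 4 EZH2 GOF values were close to each other, and it fell by 5.77 on the log2 scale (standard error 0.62, adjusted p = 0.0320, limma). Pax6, a paired-box factor of the eye, forebrain and granule cell precursors on chromosome 2, had 298, 245, 219.8 and 158 normalized counts in EZH2 GOF tumors, against 1259, 982 and 1693 in EZH2 WT tumors. The lowest EZH2 WT value was over 3 times the highest EZH2 GOF value and the groups did not overlap, with a log2 fold change of -2.50 (standard error 0.32, adjusted p = 0.0407, limma). Without EZH2 WT replicate 1 Pax6 was the 1 gene of the 12 that did not pass, with an adjusted p of 0.0811 from limma. An antisense transcript, Pax6os1, overlaps Pax6, and reads of the pair cannot be told apart if strand was not used in counting, which the sources used here do not state.

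**Figure D1:**
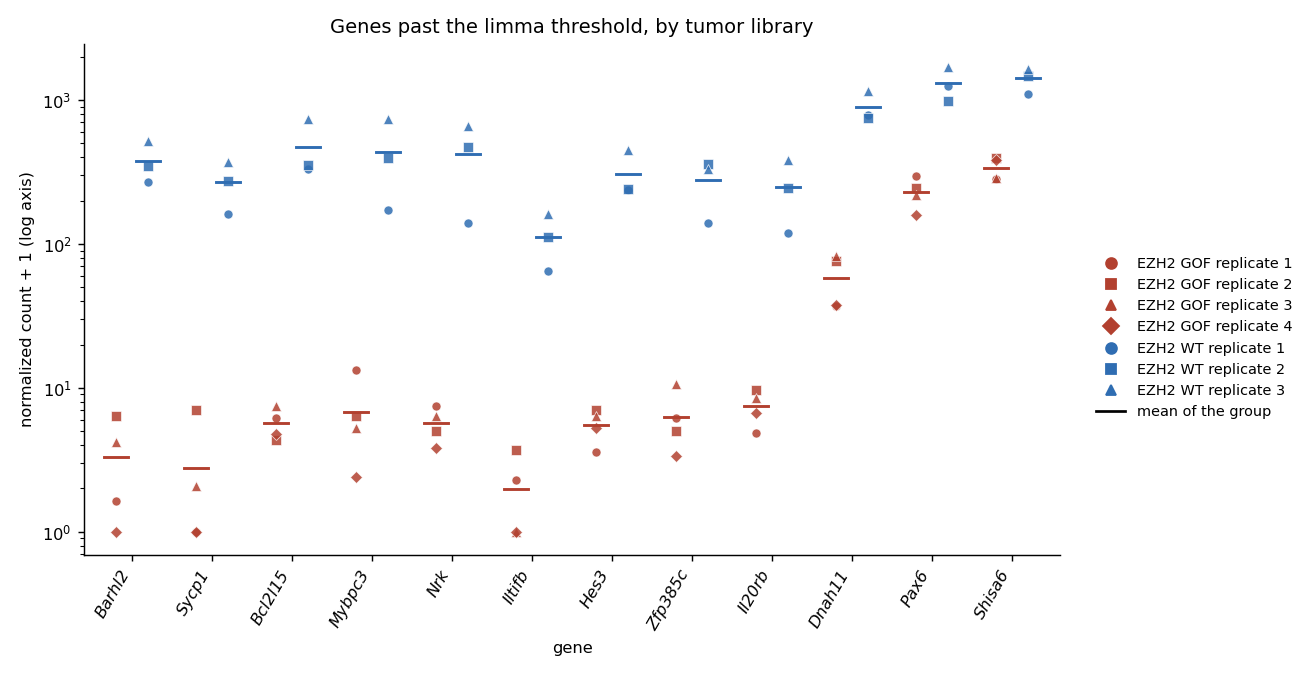
Normalized count plus 1 (log axis) of the 12 genes that limma called lower, ordered by log2 fold change, with EZH2 GOF tumors in red left of EZH2 WT tumors in blue, a symbol per replicate and a bar at the mean of the group. The groups do not overlap in any of the 12 genes, and for Dnah11, Pax6 and Shisa6 the EZH2 GOF tumors still hold 36.2 to 395 normalized counts.

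The promoters of the called genes did not share a CG content. RefSeq (GRCm38.p6) gave a window of 250 bases before to 50 after the start site, 300 bases in all, for 10 of the 12 genes. Those of Barhl2, Pax6 and Bcl2l15 are shown because they span the range, 5′ to 3′ on the gene's strand, with every CG dinucleotide in capitals. That of Barhl2 (chr5:106458117-106458416, minus strand) holds 42 CG, as many as 2.91% of 27025 promoters or more. That of Pax6 (chr2:105668646-105668945, plus strand) holds 18 CG. That of Bcl2l15 (chr3:103832446-103832745, plus strand) holds 0 CG.
Barhl2: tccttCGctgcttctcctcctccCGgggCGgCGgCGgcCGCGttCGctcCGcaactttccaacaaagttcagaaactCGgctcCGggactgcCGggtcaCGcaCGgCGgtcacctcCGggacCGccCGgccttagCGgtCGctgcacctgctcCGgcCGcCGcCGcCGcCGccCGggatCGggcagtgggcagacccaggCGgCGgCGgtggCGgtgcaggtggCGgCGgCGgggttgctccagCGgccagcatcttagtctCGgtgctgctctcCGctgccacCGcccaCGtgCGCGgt
Pax6: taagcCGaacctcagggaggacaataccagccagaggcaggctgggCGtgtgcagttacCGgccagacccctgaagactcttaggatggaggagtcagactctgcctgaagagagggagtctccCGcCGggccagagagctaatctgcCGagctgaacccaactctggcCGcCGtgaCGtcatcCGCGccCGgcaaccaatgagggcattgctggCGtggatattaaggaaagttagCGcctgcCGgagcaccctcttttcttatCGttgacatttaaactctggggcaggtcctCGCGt
Bcl2l15: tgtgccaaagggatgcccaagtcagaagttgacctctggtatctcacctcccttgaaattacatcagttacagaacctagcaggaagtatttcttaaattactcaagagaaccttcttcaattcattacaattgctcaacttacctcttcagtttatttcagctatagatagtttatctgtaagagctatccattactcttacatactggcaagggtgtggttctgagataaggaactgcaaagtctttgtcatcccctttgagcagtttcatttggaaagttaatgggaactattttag
The median promoter held 7 CG, with quartiles at 3 and 20, and 94.2% of promoters held at least 1. Nrk had 31, Sycp1 21, Zfp385c 14, Dnah11 7, Iltifb 5, and Il20rb and Mybpc3 1 each. A comparison over the whole table is void, since 226 of 294 genes (76.9%) matched a window, under the 80% needed.

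Bcl2l15, a distant member of the BCL2 family of cell death regulators on chromosome 3, had 5.16, 3.34, 6.43 and 3.77 normalized counts in EZH2 GOF tumors, against 331, 354 and 734 in EZH2 WT tumors. Its standard error was the lowest of the 12 relative to its fall, with a log2 fold change of -6.32 and a standard error of 0.61 (adjusted p = 0.0320, limma). Of its transcript, 19.6% of 50-base words also occur in other genes, and a predicted gene, Gm43064, overlaps it on the same strand, so part of its reads may be shared. The other listed family members, both of the death-promoting BH3-only class, did not pass the test. Bcl2l11 had 226, 146, 214 and 168 normalized counts in EZH2 GOF, against 982, 424 and 294 in EZH2 WT, and Bmf averaged 172 ± 28.3 in EZH2 GOF (SD, n = 4) and 350.3 ± 53.7 in EZH2 WT (SD, n = 3). Their adjusted p was 0.697 and 0.790 by limma.

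Sycp1, Mybpc3 and Dnah11 are known from testis, heart and moving cilia. Sycp1, a protein of the synaptonemal complex that joins chromosomes in meiosis, had 0, 6.02, 1.07 and 0 normalized counts in EZH2 GOF tumors, against 160.1, 273 and 372 in EZH2 WT tumors. Its EZH2 GOF counts rest on 10 reads in all, and it fell by 7.02 on the log2 scale (standard error 0.85, adjusted p = 0.0390, limma). Mybpc3, the myosin-binding protein C of the heart, had 12.3, 5.35, 4.29 and 1.41 normalized counts in EZH2 GOF, against 171, 398 and 740.1 in EZH2 WT. Both groups were spread out without meeting, and Mybpc3 fell by 6.01 on the log2 scale (standard error 0.80, adjusted p = 0.0441, limma). Dnah11, an axonemal dynein heavy chain, had 36.2, 75.6, 81.5 and 36.7 normalized counts in EZH2 GOF, against 789.6, 753 and 1160.2 in EZH2 WT. Its 321 kb on chromosome 12 overlap Cdca7l on the other strand, and it was 15.7-fold lower in EZH2 GOF by means, with a log2 fold change of -4.02 (standard error 0.45, adjusted p = 0.0320, limma).

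The remaining 5 genes belong to kinase, cytokine, zinc-finger and synapse families. Nrk, a kinase gene of the germinal center kinase family on chromosome X, had 6.46, 4.01, 5.36 and 2.82 normalized counts in EZH2 GOF tumors, against 139, 469 and 659 in EZH2 WT tumors (log2 fold change -6.00, standard error 0.72, adjusted p = 0.0390, limma). Il20rb, a receptor subunit for cytokines of the interleukin-20 group, had 3.87, 8.70, 7.51 and 5.65 in EZH2 GOF, against 117, 246 and 385 in EZH2 WT (log2 fold change -4.96, standard error 0.66, adjusted p = 0.0441, limma). In both genes EZH2 WT replicate 1 was the lowest of its group, yet above every EZH2 GOF tumor. Zfp385c, a zinc-finger gene, had 5.16, 4.01, 9.65 and 2.35 normalized counts in EZH2 GOF, against 139, 361 and 333 in EZH2 WT (log2 fold change -5.48, standard error 0.69, adjusted p = 0.0407, limma). Iltifb, a mouse paralog of the interleukin-22 gene, had 1.29, 2.68, 0 and 0 in EZH2 GOF, against 64.0, 111 and 159.7 in EZH2 WT (log2 fold change -5.95, standard error 0.74, adjusted p = 0.0407, limma). Since 39.7% of its 50-base words occur in other genes, its reads cannot be assigned to it with certainty. Shisa6, an auxiliary protein of AMPA-type glutamate receptors, had the smallest change of the 12. It had 281, 395, 287 and 379.8 normalized counts in EZH2 GOF, against 1109.7, 1474 and 1659 in EZH2 WT (log2 fold change -2.07, standard error 0.27, adjusted p = 0.0407, limma).

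The EZH2 WT tumors were unlike each other in many of the lower genes. Of the 227 lower genes, 83 had a value in EZH2 WT replicate 1 at least 2 times the mean of replicates 2 and 3, 52 had at most 0.5 times that mean, and 92 lay between. Of the 67 higher genes, 66 lay between and 1 was at most 0.5 times the mean. The called genes were 6 of the 92 and 6 of the 52, and none of the 83. In the 83 genes the median value was 288 normalized counts in EZH2 WT replicate 1, where it rests on 27 reads, against 65.6 and 66.7 in replicates 2 and 3. In the 52 genes it was 213 in EZH2 WT replicate 1, against 914 and 1194 in replicates 2 and 3. The part of the shallow library in this split was not tested. Without EZH2 WT replicate 1, the median log2 fold change was -2.28 in the 83 genes (-3.01 with it), -3.59 in the 52 (-3.04 with it) and -2.53 in the 92 (-2.56 with it). The groups then did not overlap in 220 lower and 66 higher genes, counts that leaving out a library cannot reduce.

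**Figure D2:**
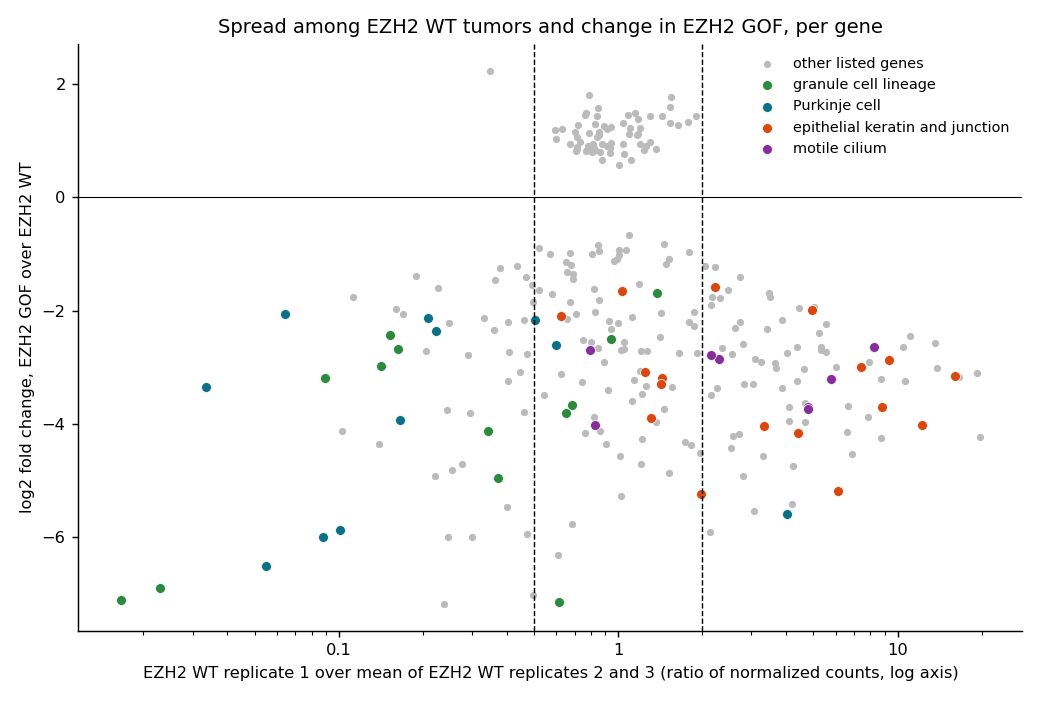
Each of the 294 genes by the ratio of EZH2 WT replicate 1 to the mean of EZH2 WT replicates 2 and 3 (horizontal, log axis, dashed lines at 0.5 and 2) and by log2 fold change of EZH2 GOF over EZH2 WT (vertical), with the genes of 4 lists in color. Higher genes cluster around a ratio of 1, most granule and Purkinje cell genes lie left of 0.5, and 10 of 17 epithelial and 6 of 8 motile cilium genes lie right of 2.

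The lower genes with a low value in EZH2 WT replicate 1 included many of the cerebellum. That value was at most 0.5 times the mean of the others in 8 of 13 listed granule cell lineage genes, and the other 5 were even. It was so in 8 of 11 listed Purkinje cell genes, while 2 were even and 1, Skor2, was high in that replicate. Of 22 genes of the cerebellar granule cell lineage list, 13 were in the table, all lower in EZH2 GOF, and 3 passed the test (Barhl2, Il20rb and Pax6). Over the table, 227 of 294 genes were lower and 12 passed. Of 22 genes of the Purkinje cell list, 11 were in the table, all lower, and 0 passed. All 11 had an unadjusted p under 0.05, as did 293 of the 294 genes. The median log2 fold change was -3.67 in the granule list and -3.36 in the Purkinje list, against -2.85 over all 227 lower genes, and both lists were drawn up with these results known. The members of the granule list summed to 800.1 to 2640.3 normalized counts in EZH2 GOF tumors, against 5015, 22136 and 43130 in EZH2 WT replicates 1 to 3. Those of the Purkinje list summed to 1578 to 2111 in EZH2 GOF, against 3777, 25114 and 44514 in EZH2 WT. In 22 of the 24 genes EZH2 WT replicate 3 was the highest of its group, and in 21 replicate 1 was the lowest.

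Gabra6, a GABA receptor subunit of mature granule cells, had 8.39, 19.4, 12.9 and 1.41 normalized counts in EZH2 GOF tumors, against 85.4, 3111 and 7125 in EZH2 WT tumors. Cbln3, a cerebellin secreted by granule cells, had 20.01, 47.5, 62.2 and 4.71 in EZH2 GOF, against 245, 7793 and 13564 in EZH2 WT. In both genes the EZH2 WT tumors spanned a wider range than separates the lowest of them from EZH2 GOF (adjusted p = 0.189 and 0.180, limma). Ppp1r17, a phosphatase inhibitor that marks Purkinje cells, had 5.16, 18.7, 15.01 and 15.1 in EZH2 GOF, against 171, 1550.2 and 2335 in EZH2 WT (log2 fold change -6.00, standard error 0.91, adjusted p = 0.0762, limma). The same order of EZH2 WT tumors recurred in other Purkinje cell genes. Pcp2, a regulator of G-protein signaling that marks Purkinje cells, had 5.81, 1.34, 3.22 and 2.35 in EZH2 GOF, against 53.4, 617 and 1323 in EZH2 WT (adjusted p = 0.0910, limma). Car8, a carbonic anhydrase relative of Purkinje cells, had 541, 775, 284 and 817 normalized counts in EZH2 GOF, against 619, 12235 and 24799 in EZH2 WT. EZH2 WT replicate 1 thus lay among the EZH2 GOF tumors for Car8 (adjusted p = 0.749, limma). Homer3, a scaffold of glutamate receptors, likewise overlapped, with 120.1, 199, 174 and 289 in EZH2 GOF, against 128, 1527 and 2450.1 in EZH2 WT. Without EZH2 WT replicate 1 the groups did not overlap in any of the 24 genes, near the share of 286 in 294 over the whole table. The test was then passed by 11 of the 24, against 23 of the 294. These were 5 of the granule list and 6 of the Purkinje list, among them Gabra6, Cbln3, Pcp2, Car8 and Homer3.

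**Figure D3:**
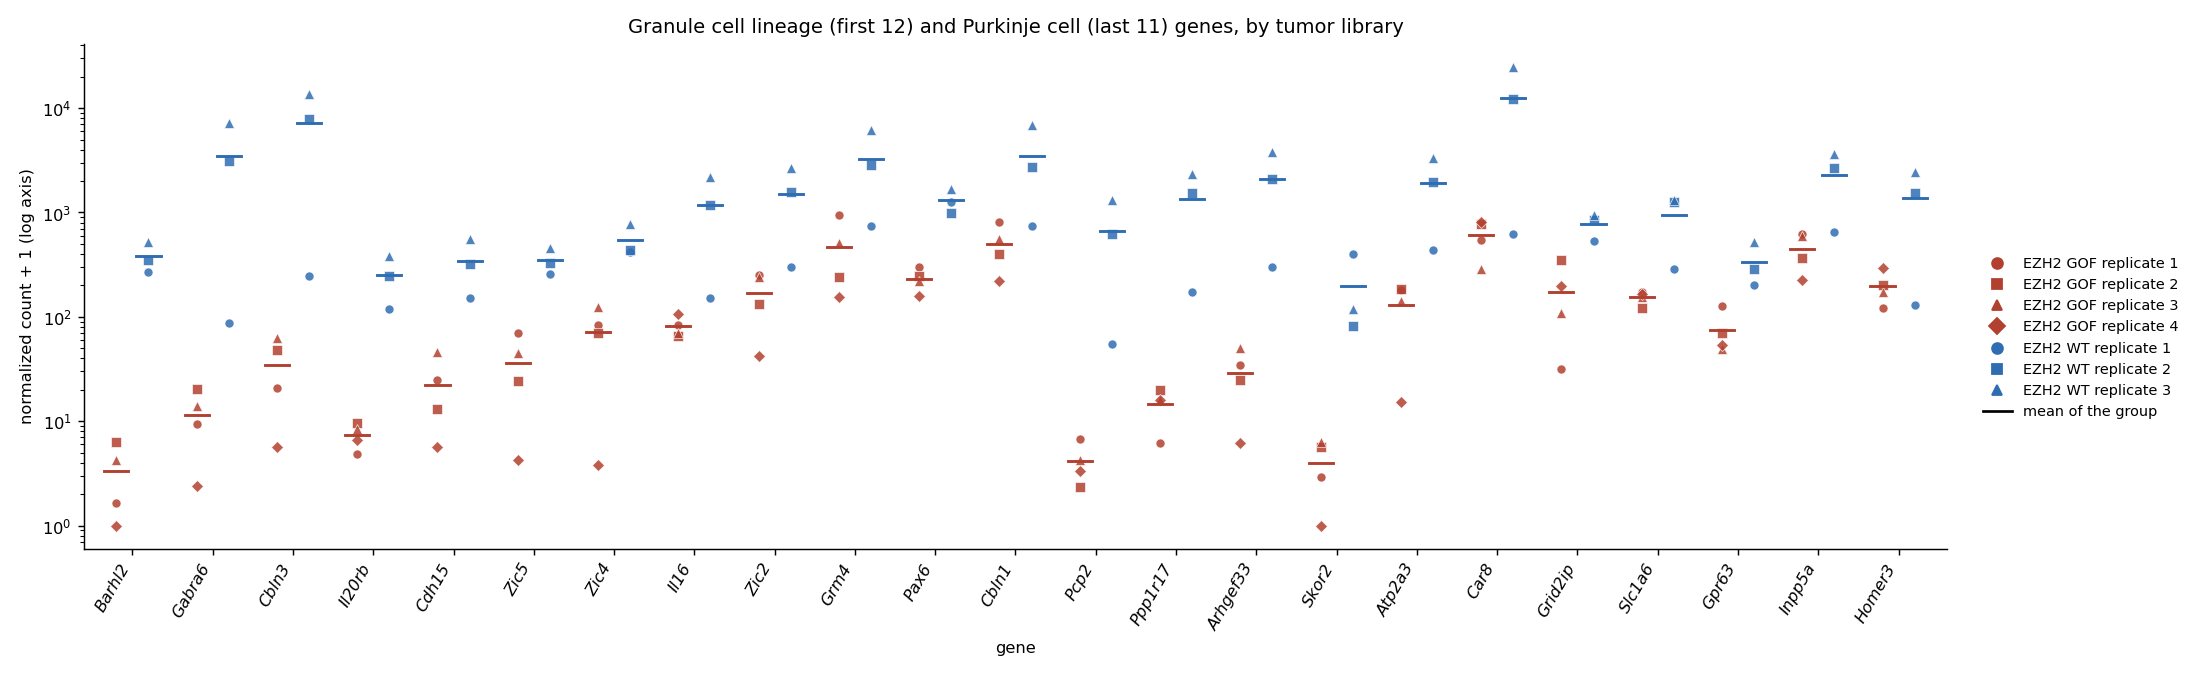
Normalized count plus 1 (log axis) of the 12 granule cell lineage genes with the lowest log2 fold changes and the 11 listed Purkinje cell genes, with EZH2 GOF tumors in red left of EZH2 WT tumors in blue, a symbol per replicate and a bar at the mean of the group. EZH2 WT replicate 1 (blue circles) is the lowest EZH2 WT tumor in 21 of the 23 genes shown and falls among the EZH2 GOF tumors for genes such as Car8 and Homer3.

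Other cell types were thinly represented. Of 12 genes of the astrocyte and Bergmann glia list 2 are in the table, Gdf10, which was lower, and Gpc5, which was higher. Gdf10, a ligand of the TGF-beta family made by Bergmann glia of the cerebellum, had 109, 20.1, 67.6 and 6.12 normalized counts in EZH2 GOF, against 181, 1391 and 1201 in EZH2 WT (adjusted p = 0.317, limma). Of 12 microglia and macrophage markers 0 are in the table, and of 9 T cell markers 3 are, Crtam, Cd28 and Ptpn22, while the defining receptor genes Cd3e, Cd3g, Cd4 and Cd8a are not. Crtam, an adhesion receptor of activated lymphocytes that some neurons also express, had the lowest log2 fold change of the table. It had 3.87, 4.68, 21.4 and 0 normalized counts in EZH2 GOF, against 288, 877 and 1536 in EZH2 WT (log2 fold change -7.19, standard error 1.05, adjusted p = 0.0696, limma). Choroid plexus genes numbered 3 of 11 (Otx2, Trpv4 and Msx1), and Ttr and Folr1, which define that tissue, are not in the table. Fibroblast and mural cell genes numbered 4 of 11, all lower, and Lum, a matrix proteoglycan, had 54.9, 57.5, 87.9 and 9.88 in EZH2 GOF, against 331, 167 and 380.3 in EZH2 WT (adjusted p = 0.496, limma). The part of any of these cell types in the lower values was not tested.

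The list of developmental transcription factors was the longest. It too was drawn up with these results known, so its share in the table is not a result. Of 40 in the list 19 were in the table, all 19 lower without overlap, near the share of 208 in 227 over all lower genes. The test was passed by 3 of them (Barhl2, Hes3 and Pax6), against 12 of 294 genes in the table, and 11 of the 19 were even among EZH2 WT tumors. Their median log2 fold change was -3.95, and their summed level was 494 to 1612 normalized counts in EZH2 GOF, against 7533, 7428 and 10605 in EZH2 WT. Tfap2b, an AP-2 factor of neural crest and cerebellar interneurons, had 27.1, 36.1, 85.8 and 2.82 in EZH2 GOF, against 587, 481 and 674 in EZH2 WT. The EZH2 WT tumors were close together here, while EZH2 GOF replicate 4 stood low (log2 fold change -4.57, standard error 0.94, adjusted p = 0.216, limma). Ebf1, a factor of B cells and of neuronal migration, had 80.0, 333, 515 and 143 in EZH2 GOF, against 1003, 1436 and 1249 in EZH2 WT (adjusted p = 0.290, limma). Otx2, which patterns forebrain and midbrain, had 1.94, 8.70, 72.9 and 7.53 in EZH2 GOF, against 128, 439.9 and 487 in EZH2 WT (adjusted p = 0.274, limma). Uncx, a homeobox gene of somites and midbrain, and Eomes, a T-box factor of intermediate progenitors, were highest in EZH2 WT replicate 1, at 576 and 309 normalized counts. The Zic genes, zinc-finger factors of the dorsal neural tube, included Zic2, Zic4 and Zic5. Zic2 had 252, 132, 240.2 and 41.4 normalized counts in EZH2 GOF, against 299, 1586 and 2646 in EZH2 WT. None of these 3 genes passed the test.

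Signaling and matrix genes were read against the table, in which 12 of 294 genes passed, 227 were lower and 208 of these 227 did not overlap. All 9 listed genes of the BMP, FGF, Wnt and hedgehog list were lower without overlap, near that share, and 0 passed (median log2 fold change -1.79). The ligand Bmp6 averaged 106 ± 66.7 normalized counts in EZH2 GOF (SD, n = 4) and 415 ± 66.9 in EZH2 WT (SD, n = 3), and the Wnt receptor Fzd7 had 223, 181, 343 and 254 in EZH2 GOF, against 459, 677 and 1187 in EZH2 WT. Of 14 listed matrix genes, 13 were lower and 1, the glypican Gpc5, was higher. Svep1, a large matrix protein, had 81.3, 234, 217 and 186 in EZH2 GOF, against 854, 948 and 1185 in EZH2 WT, with even EZH2 WT values (log2 fold change -2.56, standard error 0.41, adjusted p = 0.0890, limma). Emilin3, an elastin-interface protein, had 3.87, 2.68, 6.43 and 5.18 in EZH2 GOF, against 117, 79.0 and 114 in EZH2 WT (log2 fold change -4.26, standard error 0.62, adjusted p = 0.0690, limma). Of 17 listed cytokine and immune signaling genes, 14 were lower, of which Il20rb and Iltifb passed, and 3 were higher (Lifr, Traf3 and Tnfrsf21).

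**Figure D4:**
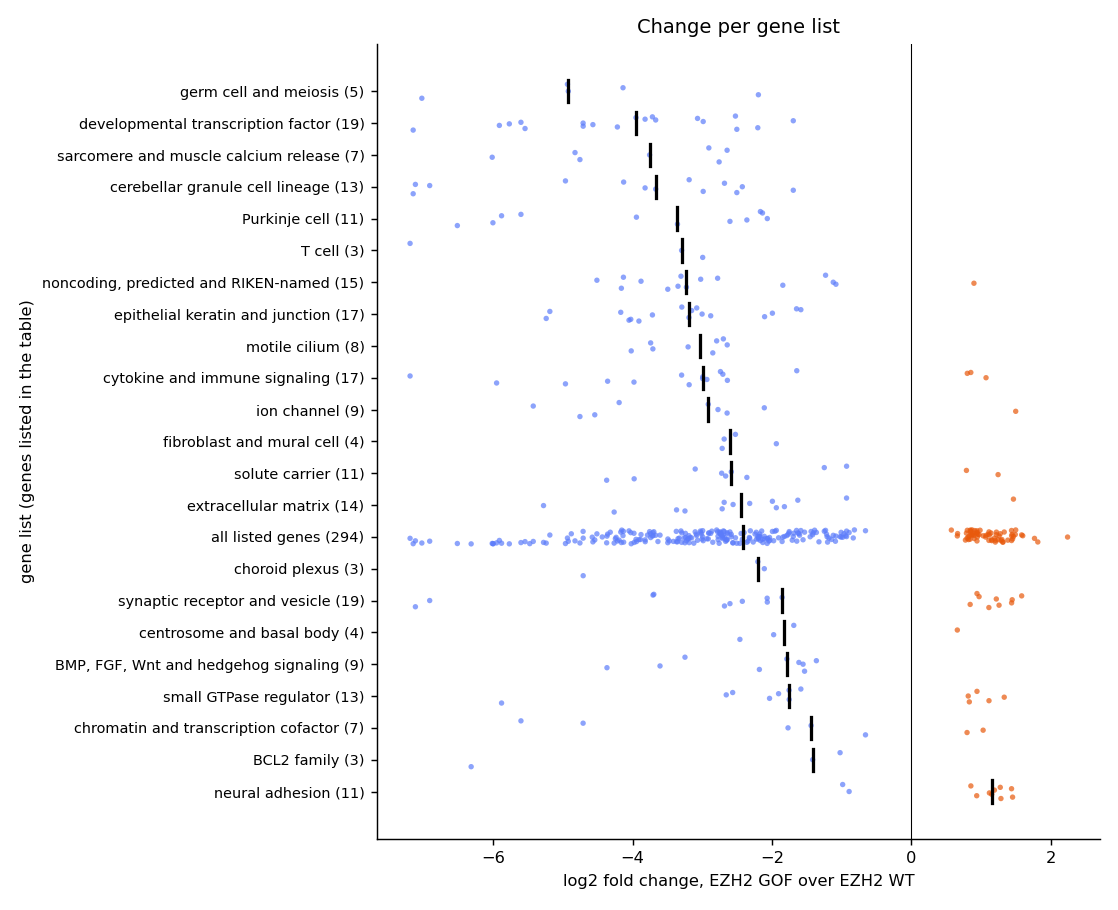
Log2 fold change of EZH2 GOF over EZH2 WT of every listed gene in the 22 lists with at least 3 genes in the table and over all 294 genes, a point per gene (blue lower, orange higher), with a black bar at the median and the number of genes in parentheses. Of the 22 lists, 12 lie wholly below 0, and only the neural adhesion list has its median above 0, at 1.15. The lists were drawn up with these results known, so the direction of a list is not a result.

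Genes of epithelia, cilia and muscle were lower, and those of epithelia and cilia were often high in EZH2 WT replicate 1. Of 17 listed epithelial keratin and junction genes, all were lower and 0 passed (median log2 fold change -3.19). In 16 of them the groups did not overlap, near the share of 208 in 227 over all lower genes. In 10 of them EZH2 WT replicate 1 was at least 2 times the mean of the others. Krt8, a keratin of simple epithelia, was even, with 1.29, 2.01, 7.51 and 1.88 normalized counts in EZH2 GOF, against 64.0, 56.2 and 41.7 in EZH2 WT (adjusted p = 0.120, limma). Pkp3, a desmosomal plaque protein, had 0.646, 6.69, 7.51 and 2.82 in EZH2 GOF, against 267, 137 and 132 in EZH2 WT (log2 fold change -5.24, standard error 0.77, adjusted p = 0.0697, limma). Macc1, a regulator of the MET receptor gene in human tumors, had 5.81, 6.69, 5.36 and 1.41 in EZH2 GOF, against 544, 65.6 and 1.92 in EZH2 WT. For Macc1 1 EZH2 WT tumor lay among the EZH2 GOF tumors, and by means it was 7.01-fold lower in EZH2 GOF without EZH2 WT replicate 1, against 42.3-fold with it. All 8 listed motile cilium genes were lower without overlap, near the share of 208 in 227 over all lower genes, and 1 passed, Dnah11. Dnah6, another axonemal dynein, had 36.8, 116, 71.9 and 47.5 in EZH2 GOF, against 789.6, 307 and 382 in EZH2 WT (adjusted p = 0.162, limma), while Foxj1, the master regulator of motile cilia, is not in the table. All 7 listed genes of sarcomere and muscle calcium release were lower without overlap, again near that share, and 1 passed, Mybpc3. In 3 of the 7 EZH2 WT replicate 1 was at least 2 times the mean of the others, and in 3, Mybpc3 among them, it was at most 0.5 times that mean. Neb, the giant ruler of thin filaments, had 66.5, 86.3, 81.5 and 102 in EZH2 GOF, against 811, 369 and 613 in EZH2 WT (log2 fold change -2.76, standard error 0.40, adjusted p = 0.0690, limma). Ryr1, the calcium release channel of skeletal muscle that Purkinje cells also use, had 85.9, 45.5, 11.8 and 17.9 in EZH2 GOF, against 2273, 387 and 693 in EZH2 WT (adjusted p = 0.0986, limma).

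Smaller lists of other functions were mixed or mostly lower, in a table where 227 of 294 genes were lower and 12 passed. All 5 listed germ cell and meiosis genes were lower, with Sycp1 passing. Tssk5, a kinase of sperm maturation, had 2.58, 0, 2.14 and 0.471 normalized counts in EZH2 GOF, against 32.0, 47.5 and 26.9 in EZH2 WT (adjusted p = 0.0966, limma). Prm1, which packs sperm DNA, was high in 1 library, with 2.58, 0.669, 1.07 and 0.471 in EZH2 GOF, against 96.0, 866 and 1.92 in EZH2 WT, and the groups overlapped. Of 11 listed solute carriers, 9 were lower and 2 higher. Slc5a1, the sodium-glucose cotransporter of the gut, had 2.58, 4.01, 11.8 and 6.59 in EZH2 GOF, against 203, 83.7 and 138 in EZH2 WT (log2 fold change -4.37, standard error 0.70, adjusted p = 0.0890, limma), and Slc1a1, a glutamate transporter of neurons, was higher in EZH2 GOF without overlap. Of 9 listed ion channel genes, 8 were lower and 1, Kcnh5, was higher. Scnn1b, a subunit of the epithelial sodium channel, had 4.52, 0, 4.29 and 1.88 in EZH2 GOF, against 256, 46.9 and 27.6 in EZH2 WT, so that EZH2 WT replicate 1 set most of its mean.

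Regulators of small GTPases divided into 8 lower and 5 higher genes of 13 listed. Cdc42bpg, a kinase acting downstream of CDC42, had 153, 93.6, 90.1 and 50.4 normalized counts in EZH2 GOF, against 555, 512 and 543 in EZH2 WT, 5.54-fold lower in EZH2 GOF with the EZH2 WT tumors nearly level (adjusted p = 0.0932, limma). On the higher side, Rapgef5, an activator of Rap proteins, had 4935, 2666, 2216 and 2248 in EZH2 GOF, against 1462, 1243 and 1247 in EZH2 WT (adjusted p = 0.431, limma). Of 7 listed chromatin and cofactor genes 5 were lower and 2 higher. Skor2, a corepressor of Purkinje cells, had 1.94, 4.68, 5.36 and 0 in EZH2 GOF, against 395, 80.4 and 117 in EZH2 WT, and it was the 1 gene of the Purkinje list that was high in EZH2 WT replicate 1 (adjusted p = 0.0890, limma). Smyd2, a lysine methyltransferase, lay on the other side with 1208, 1185, 1453 and 1606 in EZH2 GOF, against 469, 790.2 and 779.9 in EZH2 WT (adjusted p = 0.399, limma). The subunits of Polycomb complexes in the list (Ezh1, Ezh2, Eed, Suz12, Jarid2, Bmi1, Cbx2 and Cbx8) are not in the table. Of 10 centrosome genes 4 were listed, 3 lower and 1 higher. Cep72 had 52.3, 58.2, 71.9 and 68.7 in EZH2 GOF, against 437, 284 and 337 in EZH2 WT (log2 fold change -2.46, standard error 0.40, adjusted p = 0.0910, limma), while Cep76 followed the cerebellar pattern with 303, 262, 346 and 337 in EZH2 GOF, against 363, 1981 and 2546 in EZH2 WT.

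Lower genes outside these lists numbered 74. Tdo2, which degrades tryptophan, had 26.5, 11.4, 12.9 and 4.71 normalized counts in EZH2 GOF, against 128, 137 and 142 in EZH2 WT, the even EZH2 WT values standing well apart (adjusted p = 0.189, limma). Plk5, an inactive polo-like kinase of neurons and glia, had 84.6, 39.5, 80.4 and 35.8 in EZH2 GOF, against 363, 501 and 658 in EZH2 WT (log2 fold change -3.12, standard error 0.48, adjusted p = 0.0860, limma). Both lay apart from EZH2 WT in every EZH2 GOF tumor. Noncoding and predicted loci, such as Kcnq1ot1 and Gm853, form a list of their own and are not among the 74. Kcnq1ot1, the imprinted transcript antisense to Kcnq1, had 1359, 1707, 1100.3 and 886 in EZH2 GOF, against 4908, 2151 and 2261 in EZH2 WT (adjusted p = 0.496, limma). Gm853 and Cabp2 had 1 and 2 reads in all in EZH2 GOF, and no fold is given for them.

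Genes with higher values in EZH2 GOF numbered 67, of which 0 passed the test in limma and 33 were in no list. Of 11 listed neural adhesion genes 9 were higher and 2 lower, and of 19 listed synaptic genes 9 were higher and 10 lower. Tmem132b, a membrane protein of neurons, had 6922, 5966, 3268 and 8140.1 normalized counts in EZH2 GOF tumors, against 1398, 1689 and 1853 in EZH2 WT tumors. The lowest EZH2 GOF tumor lay well above the highest EZH2 WT tumor (log2 fold change 1.81, standard error 0.30, adjusted p = 0.0932, limma). Shroom2, a regulator of actin at cell junctions, had 2886, 1938, 2280.0 and 2680.0 in EZH2 GOF, against 1003, 1083 and 848 in EZH2 WT (log2 fold change 1.31, standard error 0.22, adjusted p = 0.0910, limma). Tchh, a hair follicle protein, had the highest log2 fold change, 2.24 with a standard error of 0.59. It had 127, 90.3, 117 and 95.1 in EZH2 GOF, against 10.7, 27.5 and 34.0 in EZH2 WT, where the first value is 1 read (adjusted p = 0.431, limma).

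Among synaptic genes, the glutamate receptor gene Grm5 had 8793, 7624, 3958 and 7792 normalized counts in EZH2 GOF, against 2636, 3479 and 2438 in EZH2 WT (adjusted p = 0.278, limma). The GABA receptor subunit gene Gabra3 had 2416, 1558, 1545 and 1611 in EZH2 GOF, against 896, 826 and 713 in EZH2 WT (adjusted p = 0.233, limma). Gabra3 and the granule cell subunit gene Gabra6 thus lay on opposite sides. Syt11, a vesicle protein, averaged 17131 ± 2006 normalized counts in EZH2 GOF (SD, n = 4) and 8828 ± 1948 in EZH2 WT (SD, n = 3), 1.94-fold higher in EZH2 GOF. Syt16 and C1ql3 overlapped between the groups. Chrm2, a muscarinic acetylcholine receptor gene, had 1286, 841, 1442 and 420.3 in EZH2 GOF, against 395, 325 and 283 in EZH2 WT, with EZH2 GOF replicate 4 near the EZH2 WT tumors (adjusted p = 0.567, limma). Among adhesion genes, the protocadherin Pcdh7 had 6481, 3960.5, 4473 and 3938 in EZH2 GOF, against 1515, 2106 and 2117 in EZH2 WT (log2 fold change 1.29, standard error 0.24, adjusted p = 0.144, limma). Pcdh11x, another protocadherin, had 2066, 3399, 1569 and 3056 in EZH2 GOF, against 747, 1191 and 765 in EZH2 WT (adjusted p = 0.241, limma). Ncam2, a homophilic adhesion molecule, averaged 4702 ± 752 in EZH2 GOF (SD, n = 4) and 2469.8 ± 529 in EZH2 WT (SD, n = 3). In each of these genes every EZH2 GOF tumor lay above every EZH2 WT tumor. Ctnna2, the alpha-catenin of neurons, had 4077, 3928, 2756 and 3956 in EZH2 GOF, against 1291, 1719 and 1964 in EZH2 WT (adjusted p = 0.184, limma). Omg, a glycoprotein of oligodendrocytes and neurons, averaged 3004 ± 598 in EZH2 GOF (SD, n = 4) and 1333 ± 363 in EZH2 WT (SD, n = 3), and it was the 1 gene of 18 of the oligodendrocyte lineage list in the table. It lies within an intron of Nf1 on the other strand. Gpc5, a heparan sulfate proteoglycan of astrocytes, had 1063, 2227, 1104 and 3226 in EZH2 GOF, against 651, 616 and 584 in EZH2 WT, and the spread lay in the EZH2 GOF tumors (log2 fold change 1.47, standard error 0.39, adjusted p = 0.449, limma). Lifr, a receptor of the interleukin-6 cytokine family, had 3367, 5851, 4830.2 and 3707 in EZH2 GOF, against 1643, 2267 and 2350.0 in EZH2 WT (adjusted p = 0.278, limma). Traf3 and Tnfrsf21, an adaptor and a receptor of tumor necrosis factor signaling, were 1.76-fold and 1.81-fold higher in EZH2 GOF by means.

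**Figure D5:**
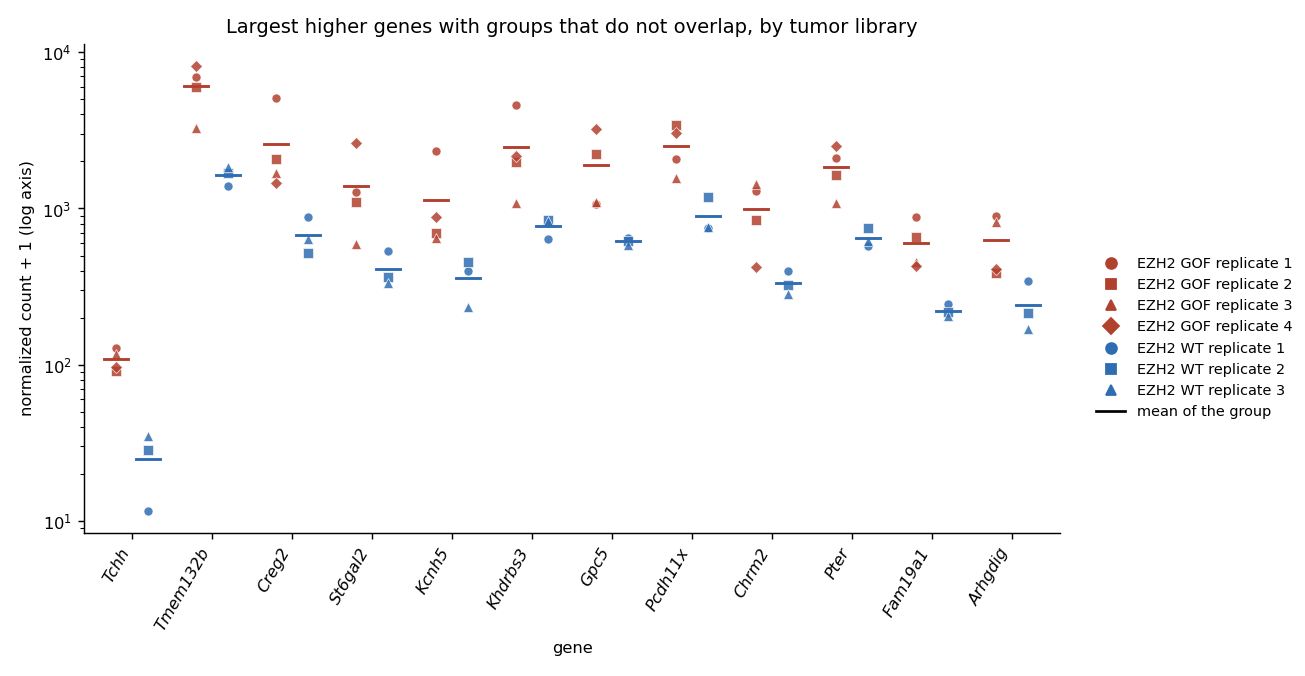
Normalized count plus 1 (log axis) of the 12 genes with the highest log2 fold change among those whose groups do not overlap, with EZH2 GOF tumors in red left of EZH2 WT tumors in blue, a symbol per replicate and a bar at the mean of the group. The groups do not overlap in any gene shown, though EZH2 GOF replicate 4 lies close to the highest EZH2 WT tumor for Chrm2, Tchh has the lowest counts, and EZH2 GOF replicate 1 (red circles) stands above the others for Creg2 and Kcnh5.

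The higher genes were long. The median span of a protein-coding gene was 109.8 kb among the higher genes, 32.1 kb among the lower ones and 17.3 kb over 22028 protein-coding genes of the annotation. More than 100 kb was reached by 39 of 66 higher protein-coding genes (59.1%), 45 of 216 lower ones (20.8%) and 11.3% of the annotation. Exon lengths differed less, with medians of 6.12 kb in higher, 4.72 kb in lower and 3.49 kb in annotated genes. These are descriptions of a list selected on expression, and long exons also gather more reads. The annotation also holds genes outside the 16173 that were tested, so it is not a matched background. Apart from protein-coding genes, the lower genes held 4 antisense transcripts, 4 processed transcripts, 2 lincRNAs and 1 transcript of a bidirectional promoter, and the higher genes 1 pseudogene.

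The EZH2 GOF tumors differed among themselves. EZH2 GOF replicate 4, the library with the highest size factor (2.12), had the lowest value of the group in 116 of 227 lower genes, and in lower genes its median was 13.2 normalized counts, against 30.3, 28.8 and 48.3 in replicates 1 to 3. For Zic4 it had 2.82 normalized counts, against 69.6 to 124 in the other EZH2 GOF tumors and 416 to 779.9 in EZH2 WT. EZH2 GOF replicate 3, the library with the lowest size factor of the group (0.932), was the lowest in 34 of 67 higher genes and the highest in 95 of 227 lower ones. The part of library depth in these differences was not tested.

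The loss-of-function experiment of the series used other tumors and other controls, with p53 deleted in place of knocked down. EZH2 LOF tumors came from Nestin-Tv-a; p53f/f;Ezh2f/f mice and their controls from Nestin-Tv-a; p53f/f;Ezh2wt mice, both given RCAS Cre. In its table, 66 of these genes are listed as well. They are 22.4% of the genes described here and 1.87% of the 3533 genes listed there. Of those 3533 genes, 1727 were higher and 1806 lower in EZH2 LOF than in those p53f/f controls. The 3533 genes were called among 13391 tested in that experiment, a large share. The number of shared genes is therefore not by itself a sign of a link between the experiments. Of the 33 shared genes that were lower in EZH2 GOF, 24 were higher in EZH2 LOF, and of the 33 that were higher in EZH2 GOF, 30 were lower in EZH2 LOF. Both tables hold only called genes and were normalized apart, and no test of this overlap was made.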

How the data were processed

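RNA from 7 flash-frozen tumors was sequenced after depletion of ribosomal RNA, with single-end reads of the TruSeq Stranded Total RNA kit. Per the submitters' processing notes and methods, reads were trimmed with Trim Galore, checked with FastQC, aligned to mm10 with STAR and counted per Ensembl gene with HTSeq (no source used here gives versions or the strand setting). The values of the deposited table are a signal, namely counts that the authors divided by the DESeq2 size factor of each library, and the deposited table keeps only genes called at their threshold of 0.05. The deposited p-values and FDR-adjusted p-values of the authors' DESeq2 test were used only to read how many genes were tested and how many called genes the table lacks. No deposited fold change was used.

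In every library 100% of the values were whole multiples of what 1 read is worth, within 0.001 reads, which gave size factors and reads. The main test was limma (3.58.1, R 4.3.3) on log2(normalized count + 1), with an intensity-dependent prior, two-sided, on all 7 tumors with equal weight and no filter. Benjamini-Hochberg adjustment ran over 16173 genes, with genes outside the table counted at a p of 1, so that an adjusted p is not lower than it would be with their true values. The spread was estimated from 294 selected genes alone. Fold changes are on the log2(value + 1) scale and understate those of low genes. Alternatives were edgeR 4.0.16 and DESeq2 1.42.0 on the recovered reads with the deposited size factors, pseudocounts of 0.5 and 5, a minimum mean of 50, library weights, no variance trend, the replicate number as a block, and leaving out each library. The fit was tested on simulated data.

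Genes named are those called, the 12 largest falls and the 12 largest rises among genes whose groups do not overlap, up to 8 members of each of 29 lists with the smallest p, and any listed gene the study's text names (there were none). Another 14 genes were named after their values were seen, namely Kcnq1ot1, Traf3, Tnfrsf21, Car8, Homer3, Zic2, Zic4, Tdo2, Macc1, Cabp2, Shroom2, Plk5, Syt16 and C1ql3. The members, lists and this rule were chosen with earlier results of these data known. Coordinates, spans and overlaps come from the GENCODE annotation of mm10 and promoters from RefSeq, and shared sequence is the share of 50-base words of a gene's exons that occur in other genes.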

Additional observations from a re-analysis of the deposited data

Results flagged for a closer look

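Within the EZH2 GOF group of 4 tumors, 9 of 81 genes named in the text had 1 tumor far from the others. A chance rate of about 1 in 20 holds only for independent, normally distributed values. Low counts of genes from the same 4 libraries are neither, so the 9 cannot be set against that rate. Replicate 1 was the high tumor in 4 of them. It had 5103 normalized counts of Creg2, a secreted glycoprotein gene of the brain, against 1461 to 2069.5 in the other EZH2 GOF tumors. It had 4935 of Rapgef5, 2416 of Gabra3, and 2339 of Kcnh5, a voltage-gated potassium channel gene. Replicate 3 was the high tumor for Otx2, at 72.9 normalized counts, for Krt8, at 7.51, and for Gm853, at 1.07, which is 1 read, and the low tumor for Ctnna2, at 2756. Replicate 2 was the high tumor for Eomes, at 17.4, against 0.471 to 1.07 in the other EZH2 GOF tumors.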

How the results depend on the processing

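Over 160 named genes and 2382 comparisons with an alternative, 0 directions were reversed, which the selection of the table favors. The number of genes called lower, 12 by limma, was 3 with a pseudocount of 0.5, 3 with a minimum mean of 50, 99 with library weights, 4 with edgeR and 214 with DESeq2, and ran from 0 to 23 when 1 library was left out. It was 15 with a pseudocount of 5 and 14 without a variance trend, 9 of them among the 12. The number called higher, 0 by limma, was 17 with library weights and 64 with DESeq2. Bcl2l15, Hes3 and Dnah11 passed under all 8 alternatives that kept every library. Library weights gave EZH2 WT replicate 1 a weight of 0.274, against 1.27 and 2.44 for the other EZH2 WT libraries. With a ratio bound of 3 in place of 2, 33 lower genes were low in EZH2 WT replicate 1, against 52. Replicate numbers did not pair the tumors, since the correlation of same-numbered deviations was -0.07, -0.18 and 0.01. With the numbers as a replicate block, 57 genes were called lower and 7 higher, and these counts come from a pairing that the data do not show. The low depth of EZH2 WT replicate 1 limits the precision of every fold change, and so does the absence of genes that were not called.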
